A study of Mus musculus with 7 samples.

Results

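The Dlx family was described in the mesenchyme of the mouse pharyngeal arches by 7 of the 32285 genes in the count matrices, found by symbol: Dlx1, Dlx2, Dlx3, Dlx4, Dlx5, Dlx6 and the antisense transcript Dlx6os1. Mesenchymal cells were those with at least 2 UMIs (unique molecular identifiers, each a counted RNA molecule) of Twist1, Prrx1 and Prrx2 together, and they made up 30538 of 53546 cells kept from 65862 barcodes. The cells came from single-cell RNA-seq of sorted EGFP+ DAPI- neural crest cells in 7 libraries, each a pool of embryos on a mixed Swiss-Webster background. Every library carries Wnt1-Cre/+ and ROSA-EGFPf/+, so that Cre under Wnt1 control, active in the neural crest and the dorsal neural tube, switches on EGFP in that lineage.

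The control groups were E8.5 (1 library, anterior part of the embryo), E9.5 (1 library, pharyngeal apparatus with heart) and E10.5 (2 libraries, arches 2 to 6 with heart). The Tbx1 null groups were E9.5 (1 library, same dissection) and E10.5 (2 libraries, the apparatus below the first arch with heart). The titles and the series design call these embryos Tbx1 null, while their genotype label reads Wnt1-Cre/+;Tbx1+/-;ROSA-EGFPf/+. The study's own list of libraries gives Tbx1-/- for them, so the genotype label stands alone. Tbx1 itself, a gene of the neighbouring mesoderm and endoderm, gave, for replicates 1 and 2 in that order here and throughout, 7.72 and 4.52 CPM (the gene's UMIs in the summed cells, scaled to the same total in every library) in control mesenchymal cells at E10.5 and 6.20 and 6.28 CPM in null cells, so its level in these sorted cells does not check the labels. In sums over cells, fewer cells of a kind and less RNA per cell cannot be told apart.

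Dlx genes encode homeodomain transcription factors and lie as neighbouring pairs. Within an arch, Dlx1 and Dlx2 are active along the whole proximal to distal length, whereas Dlx5, Dlx6, Dlx3 and Dlx4 mark progressively more distal mesenchyme, and this nested code sets the identity of the upper and lower jaw and hyoid elements. Endothelin 1 signalling through Ednra is known to switch on the distal genes. Dlx1 and Dlx2 are therefore called proximal members here, and Dlx3, Dlx4, Dlx5 and Dlx6 distal members.

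The coordinates are those of mm10, with gene models of GENCODE release M21. Dlx1 (ENSMUSG00000041911, chr2:71528113-71533981, + strand) and Dlx2 (ENSMUSG00000023391, chr2:71543408-71546754, - strand) are 9426 bases apart. Dlx3 (ENSMUSG00000001510, chr11:95120119-95125296, + strand) and Dlx4 (ENSMUSG00000020871, chr11:95140447-95146263, - strand) are 15150 bases apart. Dlx6 (ENSMUSG00000029754, chr6:6863334-6868568, + strand) and Dlx5 (ENSMUSG00000029755, chr6:6877805-6882085, - strand) are 9236 bases apart. Dlx6os1 (ENSMUSG00000090063, chr6:6820189-6871592, - strand) covers 5235 bases of Dlx6 on the opposite strand, Dlx1 shares 5869 bases with Dlx1as and Dlx4 shares 1212 bases with Dlx4os. Whether strand entered the counting is not given in the sources used here, so counts of these overlapping genes are uncertain.

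The homeobox, the exonic coding stretch for the DNA-binding domain, is shown for the 6 coding members because it is the part the family shares. Each stretch of 180 bases lies in exons 2 and 3 of 3, and the 18 capitals are the codons of the stretch in the recognition helix that enters the major groove of DNA.
Dlx1: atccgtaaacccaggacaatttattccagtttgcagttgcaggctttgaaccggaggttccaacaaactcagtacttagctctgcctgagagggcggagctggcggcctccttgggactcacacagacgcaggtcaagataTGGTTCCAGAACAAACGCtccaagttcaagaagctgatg
Dlx2: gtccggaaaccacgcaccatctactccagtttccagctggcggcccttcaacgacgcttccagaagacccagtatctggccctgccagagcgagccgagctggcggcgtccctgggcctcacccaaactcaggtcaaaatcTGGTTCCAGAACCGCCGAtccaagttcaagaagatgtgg
Dlx3: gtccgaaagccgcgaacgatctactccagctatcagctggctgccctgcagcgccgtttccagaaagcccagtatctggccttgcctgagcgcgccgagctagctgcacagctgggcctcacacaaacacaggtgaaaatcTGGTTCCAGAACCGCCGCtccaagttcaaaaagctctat
Dlx4: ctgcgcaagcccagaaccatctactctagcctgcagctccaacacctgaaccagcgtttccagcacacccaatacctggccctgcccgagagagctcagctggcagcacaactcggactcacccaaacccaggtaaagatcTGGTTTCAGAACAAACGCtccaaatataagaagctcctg
Dlx5: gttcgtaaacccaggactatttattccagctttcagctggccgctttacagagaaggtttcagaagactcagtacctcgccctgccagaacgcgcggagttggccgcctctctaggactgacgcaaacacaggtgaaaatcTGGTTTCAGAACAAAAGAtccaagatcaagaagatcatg
Dlx6: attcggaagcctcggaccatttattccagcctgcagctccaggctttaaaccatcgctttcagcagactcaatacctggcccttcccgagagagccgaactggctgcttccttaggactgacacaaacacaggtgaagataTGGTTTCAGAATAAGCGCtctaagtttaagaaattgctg
Of the 15 pairs, Dlx2 and Dlx3 shared the most homeobox bases (81.7%) and Dlx3 and Dlx6 the fewest (66.1%). The genomic neighbours were not the closest pairs by sequence: 73.9% for Dlx1 and Dlx2, 71.7% for Dlx3 and Dlx4, and 73.3% for Dlx5 and Dlx6. The most similar sequence to Dlx1 was that of Dlx6 (76.7%).

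The libraries held 140264662 to 234844769 UMIs in 5987 to 12047 barcodes, and mesenchymal cells had a median of 16312 to 25643.5 UMIs. No more than 0.410% of barcodes were shared by any pair of libraries. The 6 further mesenchymal markers (Pdgfra, Twist2, Snai1, Cdh11, Col3a1 and Fli1) were all detected in mesenchymal cells of every library. Null replicate 2 at E10.5 stood apart: 3 neuron markers summed to 686 CPM in its mesenchymal cells, against 161 CPM in null replicate 1 and 85.9 and 37.8 CPM in the controls, and 5 Sox10 and glia markers to 48.3 and 71.0 CPM in the null libraries against 10.3 and 9.97 CPM in the controls. The levels, tests and co-detection at E10.5 were therefore repeated without cells that held more than 2 UMIs of Sox1, Sox2 and Sox3, more than 2 of the neuron genes Tubb3, Elavl3 and Stmn2, or more than 1 of Sox10, a rule added after seeing the data. This stricter rule left 84.4% and 95.1% of control mesenchymal cells, 70.2% of those of null replicate 1 and 25.3% (566 cells) of those of null replicate 2. Epithelial markers summed to 31.4 to 50.5 CPM at E10.5, with Krt5 at 0 in every library, and markers of forebrain Dlx neurons reached no more than 0.540 CPM in any library. The part of these other cell types in the results was not tested beyond the stricter rule. The E8.5 library used kit version 2, the E9.5 null and null replicate 1 at E10.5 version 3 and the others version 3.1. Kit and genotype therefore cannot be told apart at E9.5, the E10.5 null libraries differ in kit, and kit and group cannot be fully told apart.

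The distal members were mainly found in the mesenchymal cells, whereas Dlx1 and Dlx2 were also present in Sox10 cells, the early migrating and glial crest. Dlx5 CPM in Sox10 cells (at least 2 Sox10 UMIs and fewer than 2 of the mesenchymal genes, 191 to 1071 cells per library) lay between 0.376 and 1.09 in the 7 libraries, against 2.60 to 75.2 CPM in mesenchymal cells. The levels of Dlx5 did not overlap between these cell groups. Dlx2 gave 23.8 CPM in Sox10 cells at E8.5, 38.1 and 45.4 CPM at E9.5 (control, null), 57.0 and 40.0 CPM in the E10.5 controls and 74.1 and 44.7 CPM in the E10.5 nulls. These levels overlapped those of Dlx2 in mesenchymal cells. In an edgeR quasi-likelihood test on UMI sums with library as a block, 6 of 7 members were higher in mesenchymal than in Sox10 cells, where 19.4% of 15751 genes were. The log2 differences of the distal members and Dlx6os1 ran from 5.38 ± 0.60 (SE, n = 7 libraries) for Dlx5 to 7.05 ± 0.31 for Dlx6os1, with adjusted p from edgeR of 0.000352 and below. Dlx2 differed by 0.57 ± 0.18 (adjusted p = 0.0386 in edgeR), a call that was lost when any library other than null replicate 2 at E10.5 was left out. The value for Dlx1 was 0.63 ± 0.36 (adjusted p = 0.220 in edgeR). Against neural cells, with Sox1, Sox2 and Sox3 UMIs and none of Sox10 or the mesenchymal genes, all 7 members were higher by log2 differences of 5.40 to 7.12, beside 24.4% of 15996 genes. Neural cells should lack the family, and their highest level in any library was 2.73 CPM for Dlx2, 0.892 CPM for Dlx1 and 0.740 CPM or less for each of the others, which is the background level for the values here. Members at about this level in neural or Sox10 cells could pass the filter on low counts through the mesenchymal sums alone. Their calls and log2 differences are therefore a description and no support for a difference.

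Across the control stages every member was lowest at E8.5 (the plot of levels by library). Age, kit and dissection cannot be told apart for that library. In its mesenchymal cells 5 Sox10 and glia markers summed to 234 CPM, and 28.5% of these cells passed the stricter rule. Under that rule every member was still lowest at E8.5, with Dlx5 at 13.5 CPM and Dlx6 at 3.45 CPM, against 77.1 and 39.5 CPM at E9.5. The values that follow are over all mesenchymal cells. Dlx2 was at 39.4 CPM at E8.5, 81.2 CPM at E9.5, and 69.7 and 57.3 CPM at E10.5. Dlx1 was at 4.30 CPM, then 40.1 CPM, then 48.9 and 59.0 CPM. Dlx5 went from 6.20 CPM at E8.5 to 61.2 CPM at E9.5 and was at 75.2 and 60.7 CPM at E10.5. Dlx6 was at 1.41 CPM, then 31.1 CPM, then 36.3 and 32.7 CPM. In CPM, each of Dlx1, Dlx2, Dlx5 and Dlx6 differed more between E8.5 and E9.5 than between E9.5 and E10.5. As a ratio, the earlier step was the larger for every member. Dlx3 was at 0.380 CPM at E8.5, 4.40 CPM at E9.5, and 23.2 and 24.5 CPM at E10.5. Dlx4 followed with 0.0950, 2.11, then 9.40 and 8.39 CPM, and Dlx6os1 with 0.231, 16.3, then 36.7 and 40.1 CPM. Both E10.5 controls lay above the E9.5 control for Dlx1, Dlx3, Dlx4, Dlx6 and Dlx6os1 and below it for Dlx2, while for Dlx5 they lay on either side of it.

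**Figure D1:**
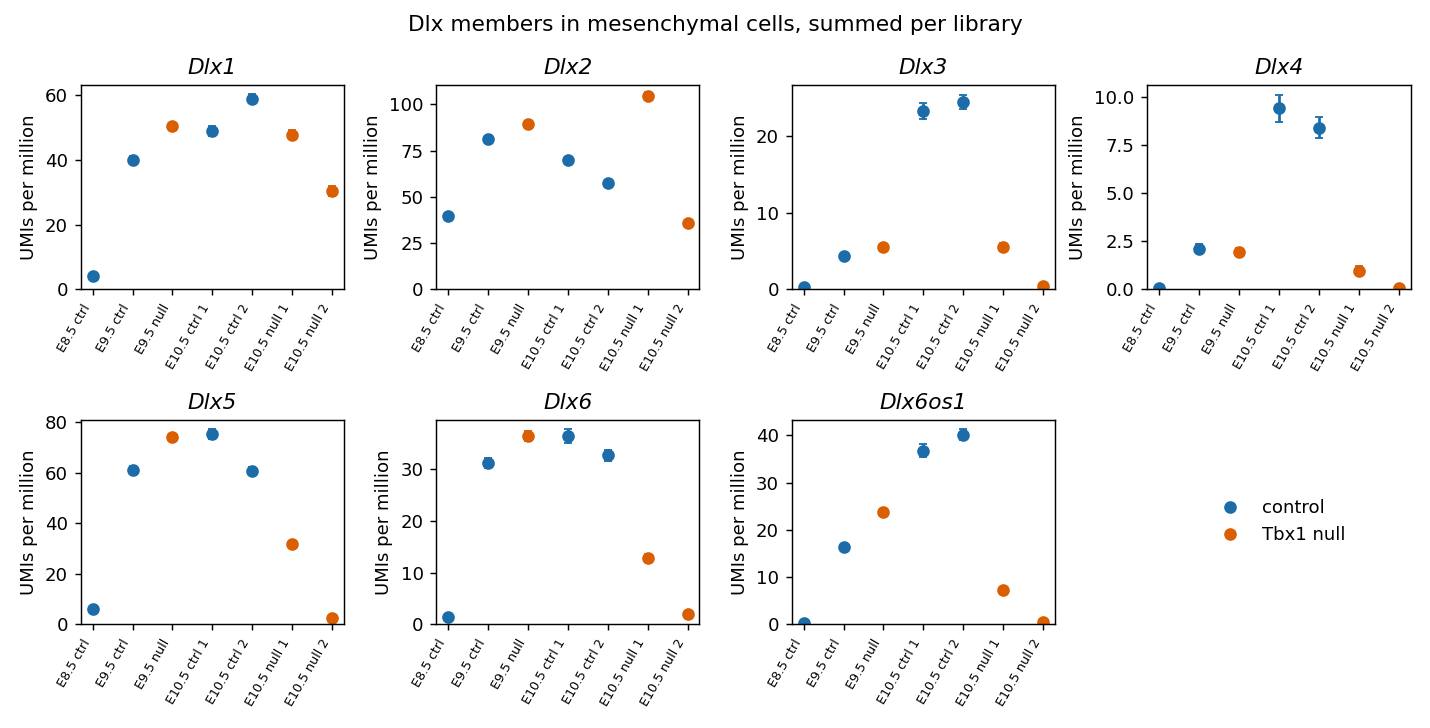
Level of each Dlx member in mesenchymal cells (CPM, linear axis from 0) in the 7 libraries, with 1 panel per member, 1 point per library, controls in blue and nulls in orange. Bars are exact 95% intervals for counting error. Both E10.5 null libraries sit below both E10.5 controls for every member but Dlx2, as they do for 26.6% of 15925 genes.

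With both genotypes in the fit and genotype as a term, 0 of 7 members passed the test of E10.5 against E9.5 in edgeR, where 12.2% of 16456 genes were lower and 11.4% higher, and no member had an unadjusted p under 0.05. This fit takes the stage difference as equal in both genotypes, so opposite differences can cancel. Its log2 differences were -0.49 for Dlx1, -0.85 for Dlx2, -0.013 for Dlx3 and -0.74 for Dlx4. Those of Dlx5, Dlx6 and Dlx6os1 were -1.62, -1.74 and -1.63 (SE 0.28 to 1.21 over the members). DESeq2 also called 0 members. In the 3 control libraries alone, a fit added after seeing the data, the log2 difference was 1.98 for Dlx3, 1.61 for Dlx4, -0.82 for Dlx2 and 0.77 for Dlx6os1. The first 3 were past the threshold in edgeR, where 8.40% of 16755 genes were higher and 8.87% lower. The lone E9.5 library is assumed there to vary like the E10.5 pair, so these values are a description and no support for a stage difference. Tissue of the first arch was taken at E9.5 but left out at E10.5, and the effects of age and of dissection cannot be told apart. Within control cells that held UMIs of Hox group 2 or 3, the genes of the second and more caudal arches, the log2 differences were 3.04 for Dlx3, 3.15 for Dlx4 and 2.56 for Dlx6os1, each past the threshold in edgeR, where 8.26% of 15876 genes were higher, and Dlx2 was not. The same limit holds there.

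At E9.5 the null library differed from the control by a log2 ratio of no more than 0.48 for any member, and there was no replicate to test it. The kit also differed, version 3 for the null and 3.1 for the control, so kit and genotype cannot be told apart here. The log2 ratio of null over control, scaled with TMM factors (trimmed mean of M values) and with exact intervals that cover counting error only, was 0.27 (0.22 to 0.32) for Dlx1 and 0.072 (0.036 to 0.11) for Dlx2. Of the distal members, Dlx3 was at 0.27 (0.12 to 0.43), Dlx4 at -0.19 (-0.43 to 0.044), Dlx5 at 0.21 (0.17 to 0.25) and Dlx6 at 0.16 (0.10 to 0.22), and Dlx6os1 was at 0.48 (0.40 to 0.55). These ratios lay within the spread over all genes, which had a median of 0.0087 and an SD of 0.49 on the log2 scale. Of the members, 4 exceeded a log2 ratio of 0.2, as did 23.8% of 15734 genes.

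At E10.5 the distal members were lower in both null libraries than in both controls, and the proximal members were less different. Dlx5 was at 75.2 and 60.7 CPM in the controls and at 31.7 and 2.60 CPM in the nulls (68.0 ± 10.2 against 17.1 ± 20.6, mean ± SD, n = 2 each). Dlx6, its genomic neighbour, was at 36.3 and 32.7 CPM against 12.8 and 1.94 CPM. For both genes null replicate 1 fell between the controls and null replicate 2, and the groups did not overlap. Dlx3 was at 23.2 and 24.5 CPM against 5.56 and 0.494 CPM. Dlx4 was at 9.40 and 8.39 CPM against 0.972 and 0.0759 CPM. The ratios of the control mean to the null mean were 7.88 for Dlx3 and 17.0 for Dlx4, against 3.96 for Dlx5 and 4.70 for Dlx6. These means depend on the null library: against replicate 1 alone the ratios were 4.29, 9.15, 2.14 and 2.71 in that order, and against replicate 2 alone 48.3, 117, 26.1 and 17.8. Dlx6os1, which overlaps Dlx6 and is transcribed from the opposite strand, was at 36.7 and 40.1 CPM against 7.17 and 0.380 CPM, a ratio of 10.2 (5.36 and 101 against each null library). In null replicate 2 the levels of Dlx3, Dlx4 and Dlx6os1 lay under 0.740 CPM, the highest level of Dlx5 in neural cells, so these ratios are set against values at about the background.

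Of the proximal members at E10.5, Dlx1 was lower in both nulls than in both controls and Dlx2 was not. Proximal and distal members were not tested against each other gene by gene. Their summed UMIs were compared as a ratio (below), where the exact permutation test cannot give a p below 0.333. Dlx1 was at 48.9 and 59.0 CPM in the controls and 47.9 and 30.5 CPM in the nulls. Dlx2 was at 69.7 and 57.3 CPM against 104.5 and 35.7 CPM. The Dlx2 values of the nulls thus lay on both sides of the controls, and Dlx1 of null replicate 1 was just below the lower control. Both nulls lay below both controls for 6 of 7 members, all but Dlx2, as did 26.6% of 15925 genes. Under the stricter rule the distal ratios were 6.32 (Dlx3), 13.6 (Dlx4), 3.02 (Dlx5), 3.65 (Dlx6) and 8.14 (Dlx6os1), and both nulls lay below both controls for these 5, as for 23.6% of 15275 genes, while Dlx1 (54.2 and 60.1 against 58.1 and 42.5 CPM) overlapped.

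None of these differences passed the test over all genes. In edgeR 0 of 7 members were called, where 10 of 15925 genes (0.0628%) were lower and 6 (0.0377%) higher. The log2 difference, null against control, was -4.14 ± 0.90 (SE, n = 2 each) for Dlx4 (adjusted p = 0.218 in edgeR), -3.44 ± 1.08 for Dlx6os1 (0.251) and -3.07 ± 0.94 for Dlx3 (0.251). It was -2.34 ± 0.78 for Dlx6 (adjusted p = 0.266 in edgeR), -2.09 ± 0.97 for Dlx5 (0.368), -0.63 ± 0.31 for Dlx1 (0.387) and 0.0046 ± 0.51 for Dlx2 (0.998). Before adjustment 4 members had p under 0.05 in edgeR (Dlx3, Dlx4, Dlx6 and Dlx6os1), as did 2393 genes in all. DESeq2 called 0 members, among 229 genes lower and 475 higher. The spread between the null libraries was wide: without null replicate 1, 5 members were called lower (Dlx3, Dlx4, Dlx5, Dlx6 and Dlx6os1), beside 0.229% of 16587 genes. Null replicate 2 then stands alone with 4 UMIs of Dlx4, which only the controls brought through the filter on low counts, so that call is no support for a difference. Without control replicate 1, 1 was (Dlx4), beside 0.527% of 16687 genes. In each of these fits the arm of 1 library is assumed to vary like the other pair, which alone gives the spread. In simulated data of the same size the same test recovered 91% of 8-fold changes and 16% of 2-fold changes, and 14 of its 121 calls were false. These rates need not hold for the distal members, whose null libraries lay far apart. Dlx3, Dlx6os1 and Dlx4 were not called at log2 differences of -3.07, -3.44 and -4.14.

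**Figure D2:**
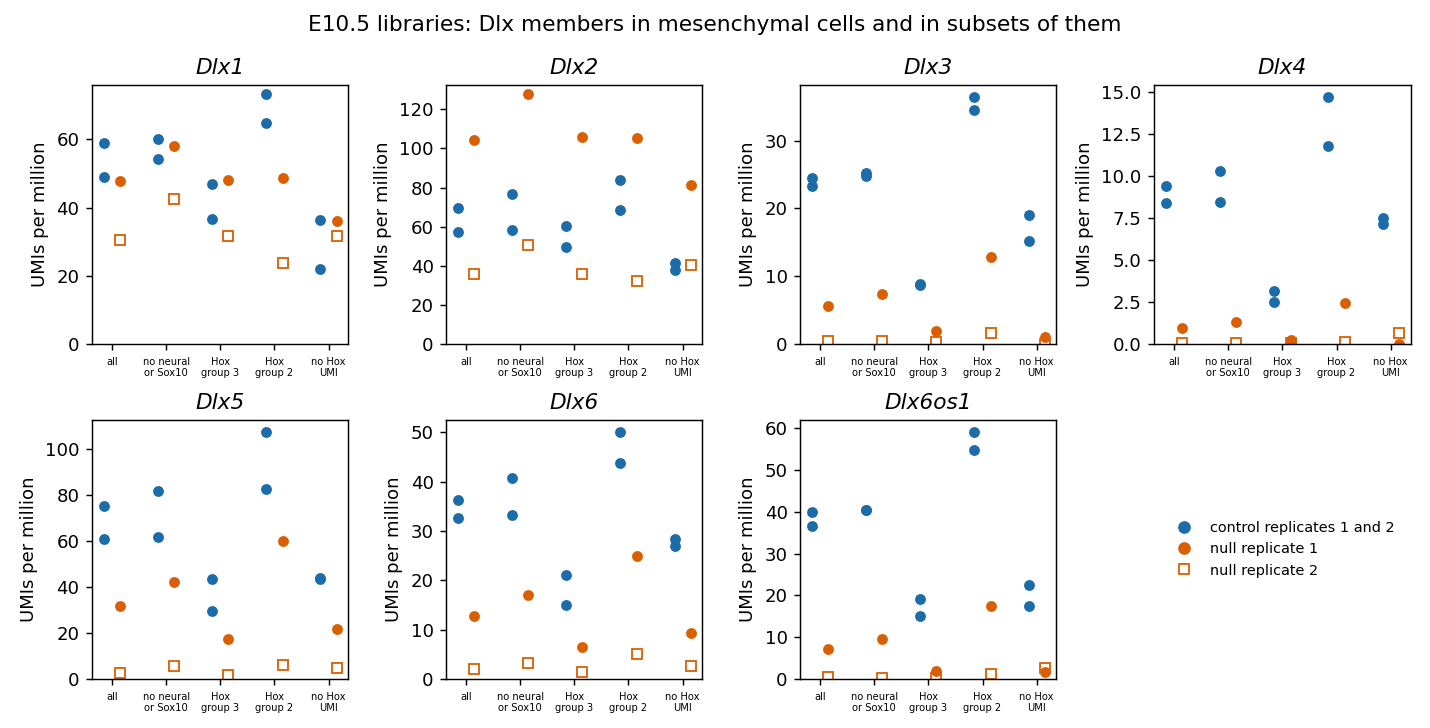
Level of each Dlx member at E10.5 (CPM, linear axis from 0) in all mesenchymal cells, in those passing the stricter rule and in the 3 Hox sets, with controls as blue circles, null replicate 1 as an orange circle and null replicate 2 as an open square. In each of the 5 sets Dlx3, Dlx4, Dlx5, Dlx6 and Dlx6os1 of both null libraries lie below both controls, as do 23.0% to 26.6% of all genes tested in these sets.

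The lower sums of the distal members went with fewer cells in which the gene was detected. To compare shares across depths, each cell was thinned to 5000 UMIs. Dlx5 was then detected in 22.8% and 19.8% of control cells and in 9.22% and 1.26% of null cells. Unthinned neural cells had medians of 9971 to 20014 UMIs, and after thinning Dlx5 was found in no more than 0.305% of them in any library. Dlx3 was detected in 9.25% and 9.05% of control cells, in 2.43% of cells of null replicate 1 and in 0 of 2224 cells of null replicate 2, which allows a share of cells with a UMI of up to 0.135% at this depth (3 counts) and does not limit the cells that express the gene. Dlx4 was at 4.34% and 3.48% against 0.379% and 0 of 2224. At 10000 UMIs per cell null replicate 2 had Dlx3 in 8 of 2161 cells (0.370%) and Dlx4 in 3. Dlx2 was detected in 25.9% and 22.0% of control cells and in 31.9% and 14.1% of null cells. Intervals and limits of this kind cover counting error only.

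The number of UMIs in cells with the gene cannot fall below 1 and depends on detection, so it is given only as a description and not as the level per cell. At 10000 UMIs per cell, cells with Dlx5 held 2.01 and 1.85 Dlx5 UMIs in the controls and 1.94 and 1.15 in the nulls, where the value of null replicate 2 rests on 55 cells. Cells with Dlx6 held 1.54 and 1.49 against 1.38 and 1.28 Dlx6 UMIs. Cells with Dlx2 held 1.61 and 1.46 against 2.06 and 1.47 Dlx2 UMIs. Null replicate 1 was above both controls for Dlx2 and within their range for Dlx5. With 2 libraries against 2, an exact permutation test cannot give a p below 0.333, so no measure of this kind could pass.

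The cells of the E10.5 libraries differed in their Hox content, which tracks arch position in mesenchyme but is not limited to it. The 5 Hox genes had a median log2 difference of -1.17 in mesenchymal against neural cells and -0.85 against Sox10 cells. The shares and levels by Hox set were not repeated under the stricter rule. The part of neural or Sox10 cells in them, above all in null replicate 2, was not tested. Cells with a UMI of Hoxa3, Hoxb3 or Hoxd3, the genes of the third and more caudal arches, were 36.4% and 25.4% of control mesenchyme and 61.9% and 80.7% of null mesenchyme. Cells with Hoxa2 or Hoxb2 alone, as in the second arch, were 46.5% and 49.7% against 32.5% and 15.9%. Cells with none of the 5 genes were 17.1% and 24.9% against 5.55% and 3.40%. Because the distal members varied with Hox content, the genotypes were also compared within each of these sets. The edgeR fits in these sets, unlike the shares and levels, were repeated under the stricter rule. Over all genes they gave 3, 15 and 85 calls, in the order of the sets above, in place of 5, 29 and 161.

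In Hox group 3 cells Dlx5 was at 43.2 and 29.7 CPM in the controls and 17.2 and 1.90 CPM in the nulls. In cells with Hox group 2 alone Dlx5 was at 107 and 82.7 CPM against 59.8 and 5.92 CPM. In cells with none of these Hox UMIs it was at 44.1 and 43.4 CPM against 21.6 and 4.64 CPM. The order was thus the same in all 3 sets, with both controls above null replicate 1 and null replicate 2 lowest. Dlx3 gave 8.81 and 8.67 against 1.97 and 0.302 CPM in Hox group 3 cells, and 36.4 and 34.5 against 12.8 and 1.60 CPM in cells with Hox group 2 alone. The groups did not overlap for any of Dlx3, Dlx4, Dlx5, Dlx6 and Dlx6os1 in any of the 3 sets, where both nulls lay below both controls for 24.7% of all genes tested in Hox group 3 cells, 24.8% in cells with Hox group 2 alone and 23.0% in cells with none.

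In the cells with none of these Hox UMIs, 4 members were lower in null than in control cells in edgeR, beside 0.526% of 11974 genes. They included Dlx6 (log2 difference -2.06 ± 0.37, adjusted p = 0.0198 in edgeR) and Dlx6os1 (-3.41 ± 0.40, 0.0034). The others were Dlx3 and Dlx4, which were so low in the null cells that only the control libraries brought them through the filter on low counts, so their calls are no support for a difference and no fitted fold is given. Dlx5 was at -1.63 ± 0.40 (adjusted p = 0.0767 in edgeR), Dlx1 at 0.14 ± 0.28 and Dlx2 at 0.59 ± 0.29, neither of them called. These null values rest on 177 and 76 cells, in which Dlx6 had 34 and 4 UMIs, Dlx6os1 had 6 and 4, Dlx3 had 4 and 0 and Dlx4 had 0 and 1, against 133 and 424 UMIs of Dlx3 and 66 and 159 of Dlx4 in the controls. The pooled ratio of control to null was 23.0 (8.94 to 84.8) for Dlx3 and 37.2 (6.61 to 1475, exact intervals for counting error) for Dlx4, where the null count is 1 UMI. When each cell was thinned to 5000 UMIs none of the 4 calls held in edgeR, with Dlx6 at -1.84 ± 0.54 (adjusted p = 0.120) and Dlx6os1 at -2.43 ± 0.61 (0.0688). There 6 members had an unadjusted p under 0.05, as did 1410 of 9381 genes.

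In Hox group 3 cells 0 members were called in edgeR, beside 0.0203% of 14813 genes lower, although 5 had an unadjusted p under 0.05 (Dlx3, Dlx4, Dlx5, Dlx6 and Dlx6os1), as did 1833 genes in all. DESeq2 called 2, among 104 genes lower and 129 higher. Dlx4 in these cells had 14 UMIs in both null libraries together, at 0.241 and 0.0465 CPM. Only the controls brought it through the filter on low counts, so its p and any call of it here are no support for a difference. In cells with Hox group 2 alone 0 were called, beside 0.142% of 14129 genes lower, with 5 at an unadjusted p under 0.05 (Dlx1, Dlx3, Dlx4, Dlx6 and Dlx6os1), as were 1983 genes in all, and DESeq2 called 0. Dlx1 there was at 64.7 and 73.4 CPM in the controls and 48.8 and 23.8 CPM in the nulls. Leaving out single libraries gave 0 to 5 calls in Hox group 3 cells and 0 to 7 in cells with Hox group 2 alone, the highest in both without null replicate 1, where 0.456% of 15141 and 2.77% of 14828 genes were lower. Whether the genotype difference itself differed between the Hox sets was not tested.

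Summed within a library, distal UMIs set against proximal UMIs gave a ratio that does not depend on library size. It was 0.185 at E8.5, 0.815 and 0.843 at E9.5 (control, null), 1.22 and 1.09 in the E10.5 controls and 0.334 and 0.0772 in the E10.5 nulls. Both E10.5 nulls were below every E9.5 and E10.5 control library. The E10.5 group means were 1.15 ± 0.0920 and 0.206 ± 0.182 (SD, n = 2 each, exact permutation p = 0.333, the smallest this design allows). Under the stricter rule the ratio was 0.349 at E8.5 and 0.922 and 0.919 at E9.5 (control, null). At E10.5 it was 1.21 and 1.08 in the controls and 0.366 and 0.0979 in the nulls. It was also lower in both nulls within Hox group 3 cells (0.788 and 0.581 against 0.168 and 0.0528), cells with Hox group 2 alone (1.40 and 1.22 against 0.649 and 0.226) and cells with neither (1.503 and 1.30 against 0.273 and 0.110).

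The genotype difference at E10.5 was also set against that at E9.5 in 1 model of the 6 libraries. The log2 difference of differences was -3.94 ± 1.41 (SE) for Dlx4, -3.91 ± 1.73 for Dlx6os1 and -3.34 ± 1.53 for Dlx3. It was -2.49 ± 1.28 for Dlx6, -2.29 ± 1.61 for Dlx5, -0.88 ± 0.52 for Dlx1 and -0.055 ± 0.85 for Dlx2. In edgeR 0 of 7 were called, with adjusted p of 0.984 or above, beside 0.00579% of 17276 genes lower, and DESeq2 called 0. Dlx4 alone had an unadjusted p under 0.05 in edgeR, as did 716 genes. Without null replicate 1 at E10.5, 5 members were called lower, beside 0.0746% of 17431 genes, and only the E10.5 controls then give the spread. Each E9.5 group is a single library here and is assumed to vary like the E10.5 pairs.

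Proximal and distal members were detected together in 0.809% to 18.4% of mesenchymal cells, depending on the library. At 5000 UMIs per cell, both a proximal and a distal UMI were found in 1.26% of mesenchymal cells at E8.5 (35 of 2770), 11.3% and 15.1% at E9.5 (control, null), 18.4% and 15.9% in the E10.5 controls and 7.77% and 0.809% in the E10.5 nulls. Both nulls at E10.5 were below both controls (exact permutation p = 0.333, difference of means -12.9 percentage points, n = 2 each). Cells with a proximal UMI only were 17.8% and 21.0% of control cells and 32.2% and 20.8% of null cells, and these groups overlapped. Under the stricter rule they did not, at 19.9% and 21.5% of control cells and 40.6% and 30.9% of null cells. Cells with a distal UMI only were 14.7% and 15.7% against 5.46% and 1.21%. Cells with no UMI of either class were 49.1% and 47.4% against 54.6% and 77.2%. Both classes with a distal UMI were thus smaller in both nulls. The direction for cells with neither class depended on the cells admitted, since under the stricter rule they were 43.5% and 46.6% of control cells and 41.4% and 65.3% of null cells, with null replicate 1 below both controls. These are classes of detection at a fixed depth and not cell types, and a cell without a UMI may still express the gene.

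**Figure D3:**
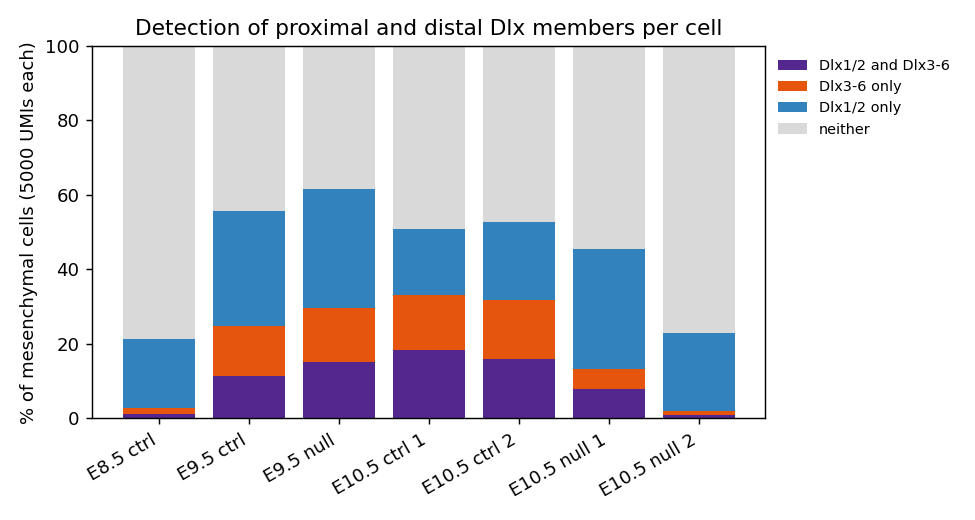
Share of mesenchymal cells (%) with proximal and distal, proximal only, distal only or no Dlx UMIs after thinning to 5000 UMIs, 1 bar per library from 0 to 100%. The share with both classes was 18.4% and 15.9% in the E10.5 controls and 7.77% and 0.809% in the nulls.

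Set against the product of the separate shares, co-detection was 2.19 times that expected of independent detection at E8.5, 1.08 times in both E9.5 libraries, 1.54 and 1.36 times in the E10.5 controls and 1.47 and 1.85 times in the E10.5 nulls. In other words, a control cell at E10.5 with a distal UMI had a proximal UMI in 55.6% and 50.3% of cases, against 26.6% and 30.7% of cells without a distal UMI. The nulls gave 58.7% and 40.0% against 37.1% and 21.2%, and the second of these values rests on 45 cells with a distal UMI. At E9.5 the shares were close, 45.5% against 41.0% in the control and 50.8% against 45.3% in the null. The value moved with the cells admitted: under the stricter rule it was 0.965 and 0.981 at E9.5, 1.39 and 1.34 in the E10.5 controls and 1.15 and 1.18 in the nulls. The null minus control difference was 0.211 over all mesenchymal cells and -0.203 under the stricter rule, so that its sign depended on the choice of cells.

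By pair, co-detection was also set against the value expected from each member's own share of cells. Over the E9.5 and E10.5 libraries, the median of observed over expected co-detection was 3.83 for Dlx3 with Dlx4, 2.73 for Dlx5 with Dlx6 and 2.75 for Dlx5 with Dlx6os1. All 10 pairs among distal members and Dlx6os1 had medians of 2.25 to 3.83. All 10 pairs of a proximal member with one of these had medians of 1.24 to 1.56, and Dlx1 with Dlx2 was at 1.55. These ranges of medians did not overlap, at 5000 or at 10000 UMIs per cell (2.10 to 3.63 against 1.18 to 1.39), but single libraries did: Dlx1 with Dlx3 was at 2.01 and 1.66 in the E10.5 controls, and Dlx4 with Dlx6 at 1.81 and 1.55. The ratio has a lower ceiling for members found in more cells, and the numbers of cells ran the other way for many pairs. In E10.5 control replicate 2, Dlx1 and Dlx5 were found together in 422 cells, and Dlx3 and Dlx4 in 64. The cells of a library share its depth and makeup, and null replicate 2 had no cell with Dlx3 or Dlx4 at 5000 UMIs, so those pairs rest on 5 libraries. Dlx6 and Dlx6os1 overlap, and the part of shared reads in their value of 2.69 was not tested.

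**Figure D4:**
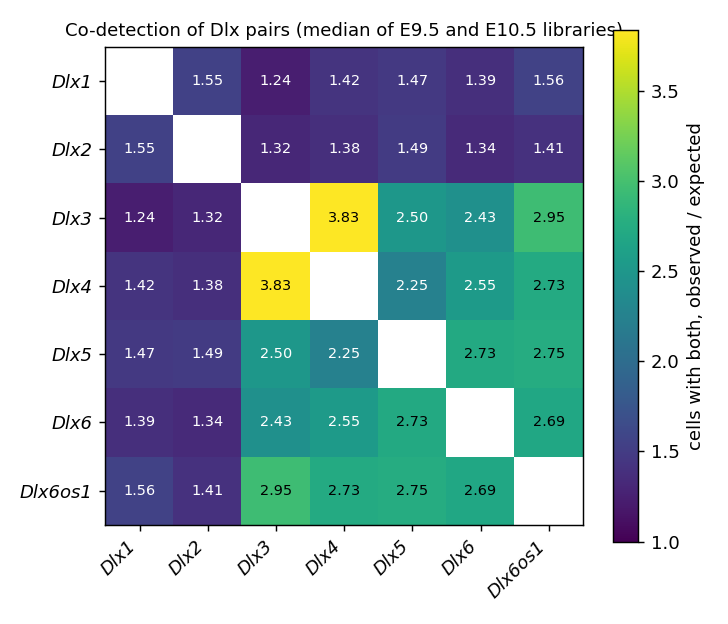
Heat map of observed over expected co-detection for each pair of members in mesenchymal cells at 5000 UMIs, as the median over the E9.5 and E10.5 libraries (6, or 5 for pairs with Dlx3 or Dlx4). Pairs among the distal members and Dlx6os1 (2.25 to 3.83) stand above pairs of a proximal member with one of these (1.24 to 1.56).

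Cells with a distal UMI were next compared with cells that had only proximal UMIs, within each of the 6 E9.5 and E10.5 libraries, for the other genes of arch patterning, as ratios of CPM with 0.5 UMIs added to each sum. The split was made on Dlx counts, so no test is given, and null replicate 2 contributed 45 cells with a distal UMI. Barx1, a homeobox gene of the jaw and hyoid mesenchyme, was the only gene of 6267 (0.0160%) with a ratio over 1.5 in 6 of 6 libraries, at 2.37 to 5.42. Cells with a distal UMI had 414 Barx1 CPM in the E9.5 control and cells with proximal UMIs only had 76.6 CPM. Ratios under 0.67 in 6 of 6 libraries were found for 7 genes (0.112%): Tfap2b, Alx1, Ebf2, Pdlim1, Fabp7, Sfrp1 and Vcam1. Tfap2b, a transcription factor of facial and arch mesenchyme, was lowest with ratios of 0.0921 to 0.322, and Alx1, a homeobox gene of frontonasal mesenchyme, was at 0.163 to 0.467. Sox10 cells held Dlx2 but little Dlx5, and the part of such crest or glial cells in these ratios was not tested. Of this comparison only Hand2 was repeated under the stricter rule.

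Hand2, a target of endothelin signalling in the distal arch, was over 1.5 times higher in cells with a distal UMI in 4 of 6 libraries. The ratio was 6.08 and 5.43 at E9.5 (control, null) and 3.38 and 2.42 in the E10.5 nulls, but 0.838 and 0.905 in the E10.5 controls. Its size depended on depth: at E9.5 it was 16.0 and 11.1 at 10000 UMIs per cell and 30.4 and 29.5 without thinning. Of the 14 genes in the ventral arch list, 6 had at least 10 CPM in all 6 libraries, and Barx1 alone was over 1.5 in each. Of the dorsal arch list 5 of 9 genes could be compared and none was on one side of the limits in all 6 libraries. Pou3f3, a factor of the proximal arch, was at 0.0934 and 0.202 at E9.5, 1.01 and 0.739 in the E10.5 controls and 0.132 and 0.434 in the E10.5 nulls, the last resting on 1 Pou3f3 UMI in cells with a distal UMI.

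**Figure D5:**
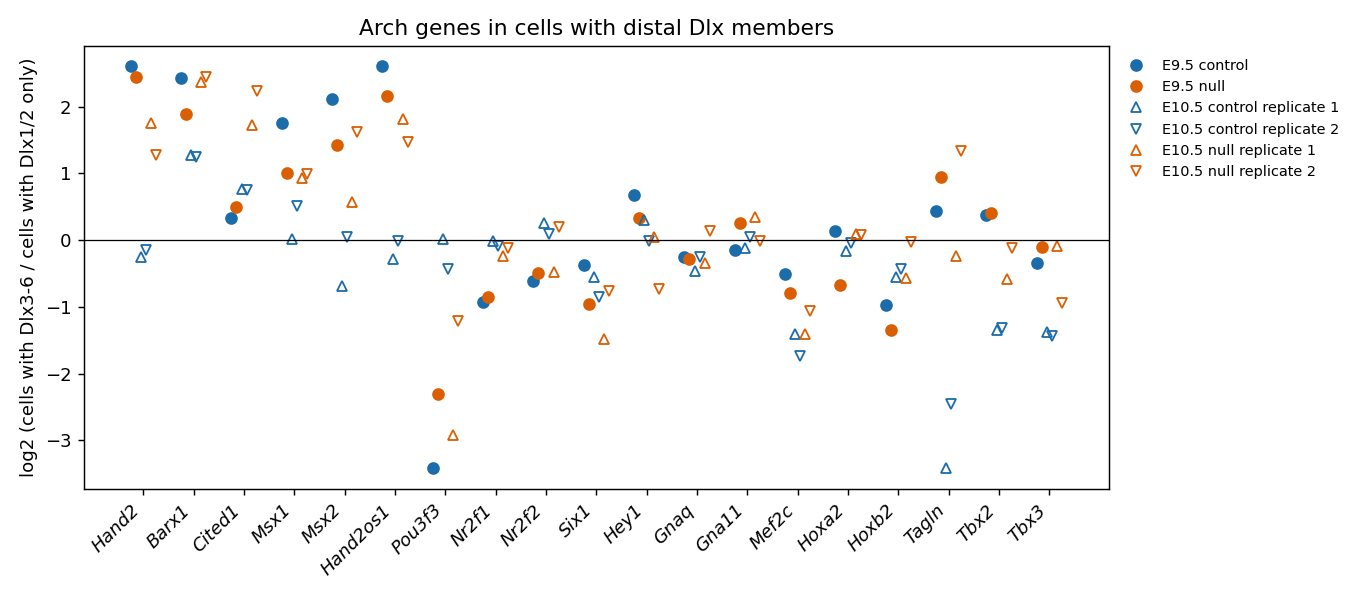
Log2 ratio of CPM in cells with a distal UMI over CPM in cells with proximal UMIs only, for the 19 listed genes with at least 10 CPM in all 6 libraries, with 1 mark per library of E9.5 and E10.5 and a line at 0. Barx1 lies above 0 in all 6 libraries, as do Cited1 and Msx1 of the same ventral list, with Msx1 close to 0 in E10.5 control replicate 1. Hand2 and Hand2os1 lie above 0 in 4 and below 0 in both E10.5 controls.

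In the E10.5 test of null against control mesenchyme, the same lists held 1 call in edgeR. Gsc, a homeobox gene downstream of the distal Dlx genes in the lower arch, fell by 2.68 ± 0.27 on the log2 scale (adjusted p = 0.0420 in edgeR), from 68.1 and 69.9 CPM in the controls to 9.06 and 15.8 CPM in the nulls. Under the stricter rule it was at -2.15 ± 0.34 (adjusted p = 0.104 in edgeR). Barx1 was at 211 and 155 CPM against 93.2 and 12.5 CPM (log2 difference -1.90 ± 0.84, adjusted p = 0.353 in edgeR). Other ventral genes were higher in both nulls without being called. Msx1, a homeobox gene of distal mesenchyme, was at 124 and 93.7 CPM in the controls and 241 and 223 CPM in the nulls (log2 difference 0.92 ± 0.24, adjusted p = 0.235 in edgeR), and Msx2 was at 32.3 and 22.4 against 87.5 and 34.9 CPM (1.02 ± 0.47, adjusted p = 0.366). Under the stricter rule these differences were 0.73 for Msx1 and 1.21 for Msx2. The median log2 difference of the 14 ventral genes was -0.69, that of the 9 dorsal genes 0.040, of the 9 endothelin pathway genes 0.11, of the 5 Hox genes 1.00, of the 9 outflow genes 0.091 and of all genes -0.020. Under the stricter rule the ventral median was -0.26 and the dorsal one -0.055, and no gene of the 5 lists was called. Over all mesenchymal cells none of the dorsal, endothelin, Hox or outflow genes were called in edgeR. The ventral median varied with the Hox set. It was -1.08 in Hox group 3 cells and 0.097 in cells with Hox group 2 alone, with 0 ventral genes called in either. In cells with none of these Hox UMIs it was -0.48, with 3 of 13 ventral genes called lower, beside 0.526% of 11974 genes. The null values there rest on 177 and 76 cells. Antisense neighbours of the family, which are not members, were at 1.45 and 1.94 against 0.187 and 0.0949 CPM for Dlx1as, and at 5.01 and 4.61 against 0.324 and 0.114 CPM for Dlx4os.

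Across single cells, the gene most like Dlx5 among the 6269 with at least 10 CPM in all 6 libraries was Barx1, whose lowest correlation over the 6 libraries of E9.5 and E10.5 was 0.166 and median 0.341, followed by Stk26 (0.0807 and 0.164) and Sem1 (0.0662 and 0.198). For Dlx2 the highest were Pfn1 (lowest 0.0807, median 0.104), Dlx1 (0.0639 and 0.153) and Npm1 (0.0613 and 0.131). Pfn1 and Npm1 are abundant genes of most cells, and the points of each correlation share a library and its depth, so these weak values describe the ranking only. Of the family, Dlx6os1 and other members under 10 CPM in some library were not ranked, and Dlx5 with Dlx6os1 had a lowest value of 0.204, above that of Barx1, and a median of 0.237, below it.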

How the data were processed

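The authors sequenced sorted EGFP+ DAPI- cells with 10x Genomics 3' kits and deposited raw UMI counts per gene and barcode for 7 libraries, made with Cell Ranger 6.0.1 on mm10 per the submitters' processing notes. From these counts, barcodes with under 1000 detected genes or over 10% of UMIs from mitochondrial genes were dropped, and doublets marked by Scrublet in scanpy 1.11.5 (287 to 1161 per library, at an expected 0.8% per 1000 barcodes) were removed. UMIs were summed per library and cell group and tested in R 4.3.3 with the edgeR 4.0.16 quasi-likelihood test (TMM factors, filterByExpr), with Benjamini-Hochberg adjustment over all genes of a fit and a threshold of 0.05. DESeq2 1.42.0 was an alternative. The tests were checked on simulated counts with known changes. Mesenchymal cells had at least 2 UMIs of Twist1, Prrx1 and Prrx2, Sox10 cells at least 2 of Sox10, and neural cells at least 3 of Sox1, Sox2 and Sox3. For shares and co-detection each cell was thinned to 5000 UMIs, leaving out 2 to 180 shallower mesenchymal cells per library. Intervals are exact 95% intervals (Poisson or Clopper-Pearson), and a count of 0 was set at 3 counts. Each library is a pool of embryos, so p-values measure the spread between pools.

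Groups came from the labels. The title of control replicate 2 at E10.5 names both a first run and a second replicate, and it was taken as replicate 2. Named were the 7 members, and from 5 lists of arch, endothelin, Hox and outflow genes those that passed a test or pattern and up to 3 others each. The members and lists were chosen with earlier results of these data known. Promoter and protein sequences were not used here, and 1 neuron marker is not reported here and entered no rule or sum.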

Additional observations from a re-analysis of the deposited data

Results flagged for a closer look

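In 3 of the 19 listed arch genes with at least 10 CPM in all 6 libraries, the E10.5 controls and nulls lay on opposite sides of 1 when cells with a distal Dlx UMI were set against cells with proximal UMIs only. The share of all genes with this pattern was not counted, so 3 of 19 is a description and no result about these genes. The ratio for Hand2 was 0.838 and 0.905 in the controls and 3.38 and 2.42 in the nulls. Its antisense neighbour Hand2os1 gave 0.826 and 0.991 against 3.53 and 2.77. Hoxa2 gave 0.889 and 0.972 against 1.07 and 1.05, all close to 1. The difference between the genotypes was not tested, and null replicate 2 has 45 cells with a distal UMI. For Hand2 the opposite sides depended on depth: without thinning the controls were at 1.10 and 1.11 and the nulls at 5.54 and 3.44, and at 10000 UMIs per cell the controls were at 1.05 and 1.07. Under the rule that leaves out cells with neural or Sox10 UMIs, chosen after seeing the data, Hand2 was at 0.870 and 0.943 in the controls and 3.42 and 3.18 in the nulls.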

How the results depend on the processing

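The calls of members against neural cells (7), against Sox10 cells (6) and the share of cells with both classes kept their direction and side of the threshold under every alternative that kept all libraries. Without 1 library each, members called ranged from 0 to 5 for the E10.5 genotypes, 0 to 1 for E10.5 against E9.5, 0 to 5 for the difference of differences, 0 to 5 in Hox group 3 cells, 0 to 7 in Hox group 2 cells, 3 to 5 in cells with no Hox UMI, 5 to 6 against Sox10 cells and 7 to 7 against neural cells. Where a fit left a single library in an arm, the spread of that arm was assumed, so those calls are no support for a difference. The share with both classes ranged from -16.4 to -9.42 percentage points, the co-detection difference from 0.0193 to 0.403, and the libraries with Hand2 over 1.5 from 3 to 4. With no filter on low counts 5 members were called for the E10.5 genotypes, 3 for E10.5 against E9.5, 5 for the difference of differences and 6 in Hox group 2 cells. DESeq2 called 2 in Hox group 3 cells. Thinning each cell gave 1 call in Hox group 3 cells, 1 in Hox group 2 cells and 0 in cells with no Hox UMI. The control libraries alone gave 3 calls for E10.5 against E9.5, as they did in Hox group 2 or 3 cells (3) and under the stricter rule (3), all chosen after seeing the data. The median E9.5 ratio of the members (0.211) was 0.272 with library totals and 0.125 under the stricter rule. The co-detection difference of 0.211 reversed to -0.0994 at 3000 UMIs, -0.0182 at 3 mesenchymal UMIs, -0.177 with the cell rule applied after thinning and -0.203 under the stricter rule. Except where noted, the cause was not tested.

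The replicate numbers only name the libraries: over 15925 genes the deviations of same-numbered E10.5 libraries from their group means had r = 0.0578. With the replicate block 0 members were called for the E10.5 genotypes, 3 in Hox group 3 cells, 6 in Hox group 2 cells and 5 in cells with no Hox UMI. Over all genes the block gave 94 calls in place of 16 at E10.5, 104 in place of 5, 502 in place of 29 and 1030 in place of 161 in the 3 Hox sets. A block for E10.5 against E9.5, and leaving out an E9.5 library in the difference of differences, could not be fitted because the E9.5 groups are single libraries without a number.

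Some log2 differences that were not called changed sign. Dlx2 at E10.5 (0.0046) was -0.0073 with no filter, -0.010 with doublets kept, -0.034 at 200 genes and 5% mitochondrial UMIs, -0.0086 thinned and -0.24 with the block, and -1.08 to 0.63 without 1 library. For E10.5 against E9.5, Dlx3 was 0.066 at 3 mesenchymal UMIs, 0.035 at 200 genes and 5%, 0.056 thinned, 0.12 under the stricter rule, 0.92 in Hox cells, 0.72 in Hox cells under that rule, 1.98 in controls alone, 3.04 in control Hox cells and 1.66 in controls under that rule, and -1.36 to 1.98 without 1 library (1.98 without the E9.5 null and 0.87 without E10.5 null replicate 2). In the same order of the last 5 sets of cells, Dlx4 was 0.61, 0.61, 1.61, 3.15 and 1.33, and -2.32 to 1.61 without 1 library (1.61 and 0.26 without the same ones). Dlx6os1 was 0.059 in Hox cells, 0.77, 2.56 and 0.48 in the 3 control sets and -3.13 to 0.78 without 1 library (0.78 without the E9.5 null). Dlx1 was 0.0024 in Hox cells and 0.50 in control Hox cells, where Dlx5 was 0.37 and Dlx6 0.54. In the difference of differences Dlx2 was 0.069 at 3 mesenchymal UMIs, 0.27 under the stricter rule, and -1.15 to 0.56 without 1 library (0.073 without control replicate 1, 0.56 without null replicate 2). In Hox group 3 cells Dlx1 was 0.16 under the stricter rule and -0.58 to 0.11 without 1 library (0.11 without null replicate 2), and Dlx2 was -0.78 to 0.85 (-0.78 without null replicate 1). In Hox group 2 cells Dlx2 was -1.45 to 0.38 (0.38 without null replicate 2). In cells with no Hox UMI Dlx1 was -0.19 to 0.58 (-0.19 without control replicate 1), and Dlx2 was -0.056 to 0.92 (-0.056 without null replicate 1).

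Over all genes, calls at E10.5 were 16 with edgeR against 4 with DESeq2's size factors, 704 with DESeq2, 1409 with no filter, 42 thinned and 11 under the stricter rule. The difference of differences gave 1 call against 48 with DESeq2 and 286 with no filter. Hox group 3 cells gave 5 against 2 with size factors, 233 with DESeq2, 0 with no filter, 16 thinned and 3 under the stricter rule, Hox group 2 cells 29 against 391, 858 with no filter, 108 thinned and 15 under the stricter rule, and cells with no Hox UMI 161 against 795 with no filter, 71 with doublets kept, 86 at 3 mesenchymal UMIs, 96 at 200 genes and 5%, 102 thinned and 85 under the stricter rule. Without a filter the median log2 difference of all genes moved to 0.12 for E10.5 against E9.5 and -0.11 in cells with no Hox UMI. In simulated counts of 2 against 2 libraries, 16% of 2-fold and 91% of 8-fold changes were recovered, so 2-fold changes were mostly missed in those simulated counts. These rates need not hold for the distal members, whose E10.5 null libraries lay far apart.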
